A study of Mus musculus with 8 samples.

Results

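The genes described here are the ligands and receptors that steer growing axons: 68 of the 53507 genes counted in these libraries. They were chosen by symbol alone, as the numbered or lettered members of the Sema3 to Sema7, Plxn, Eph, Efn, Robo, Slit, Ntn and Unc5 families with Nrp1, Nrp2 and Dcc. The rule uses no measured value, but it was proposed with earlier results of these data known. They comprise 20 semaphorins, 11 plexins and neuropilins, 14 Eph receptors, 8 ephrins, 7 Slits and Robos, and 8 netrins, Unc5 receptors and Dcc. By role they are 34 ligands and 34 receptors.

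RNA was sequenced from tdTomato-positive cells of the mouse brain, labelled as progenitor cells. The driver of tdTomato, a red fluorescent reporter protein, the mouse strain and the number of animals behind a library are not given in the sources used here. Each of 4 groups has 2 libraries, all labelled with an RNA input of 400 pg. E13 and E15 are cells of embryos, named by the day of gestation and titled wt, a word the P12 titles lack. P12 normoxia and P12 hypoxia are cells of pups at postnatal day 12, raised in room air or exposed to hypoxia. The exposed pups were kept in 10% oxygen for 8 days, from P3 to P11, and the mothers of the hypoxic and normoxic litters were swapped during that time. No label says that replicates came from separate animals, so p-values measure only the spread between libraries.

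Axon guidance proteins attract or repel the growth cone at the tip of an axon. Semaphorins act through plexins, and the secreted class 3 semaphorins mostly need a neuropilin as well. Ephrins bind Eph receptor tyrosine kinases on neighbouring cells and can signal in both directions. Slits repel through Robo receptors, while netrin-1 attracts through Dcc and repels through Unc5 receptors. In the developing cortex the same proteins also act on migrating neurons, on progenitors and on vessels.

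Libraries held 36252027 to 47084796 gene counts. Levels are given as CPM, counts per mega-count of library size after TMM scaling over all 8 libraries, and genes are compared with each other only per kb of exon. A count of 0 allows up to 3 counts, or 0.0482 to 0.111 CPM depending on the library, and covers counting error only. Neither this limit nor the counting intervals below cover loss of molecules at an RNA input of 400 pg. Exons of 17 members overlap those of another gene, over 20% of the length only in Ntn5, and without a stated strand setting such reads cannot be told apart. Replicates agreed less at P12 than in the embryo. They correlated across genes (log2(CPM + 1), genes not being independent) with r = 0.984 at E13 and 0.988 at E15, but 0.817 in normoxia and 0.705 in hypoxia. Of the 39 members with at least 10 CPM in 1 hypoxic library, 16 (41.0%) were under 1 CPM in the other, against 29.3% of all genes. In normoxia this held for 9 of 45 members (20%, against 14.9% of all genes), and at E13 and E15 for 0 of 42 and 0 of 40.

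The label was checked against marker genes. Progenitor markers (10 genes) summed to 343 to 591 CPM in the embryonic libraries and 3880 to 5080 at P12, of which Slc1a3, a glutamate transporter that astrocytes also express, made 2410 to 3430. At normoxic P12 against the embryo 6 of these 10 genes were higher, among them Pax6, Sox2 and Hes5, and Eomes was lower (edgeR). Glutamatergic neuron markers (8 genes) summed to 3410 to 4160 CPM in the embryonic libraries, with all 8 at 1 CPM or more, and to 57.9 to 271 at P12. Astrocyte markers (8 genes) summed to 35.7 to 75.1 CPM in the embryo and 8220 to 11300 at P12. By these markers the embryonic libraries held much neuronal RNA and the P12 libraries much astrocyte RNA. Endothelial markers (10 genes) summed to 16.6 CPM or less in every library, and Cldn5, Pecam1, Cdh5, Tek, Emcn and Tie1 had 0 counts in all 4 P12 libraries. Mural markers (8 genes) summed to 4.54 CPM or less in the embryo and 1020 to 2520 at P12, where Rgs5 alone made nearly the whole sum (1020 to 2500) and Kcnj8, Vtn and Abcc9 had 0 counts. Microglial markers (8 genes) summed to 1.97 to 5.31 CPM in the embryo, 59.5 and 66.6 in normoxia, and 0 and 88 in hypoxia.

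Guidance genes held more of the RNA in the embryo than after birth. The 68 members took 0.594% to 0.835% of all counts in the 4 embryonic libraries and 0.226% to 0.234% in the 4 P12 libraries. At least 1 CPM was reached by 48 to 54 members in an embryonic library, by 38 and 52 in the normoxic and by 32 and 33 in the hypoxic libraries. Only Efnb1, Efnb3, Epha4, Epha5, Plxnb1, Plxnb2, Sema3c, Sema5b and Sema6d, 9 members in all, were at 10 CPM or more in every library. At the other end, Ntn5 and Sema3g had 0 counts throughout, and Epha2, Epha6 and Robo4, a receptor of endothelial cells, stayed under 1 CPM.

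**Figure D1:**
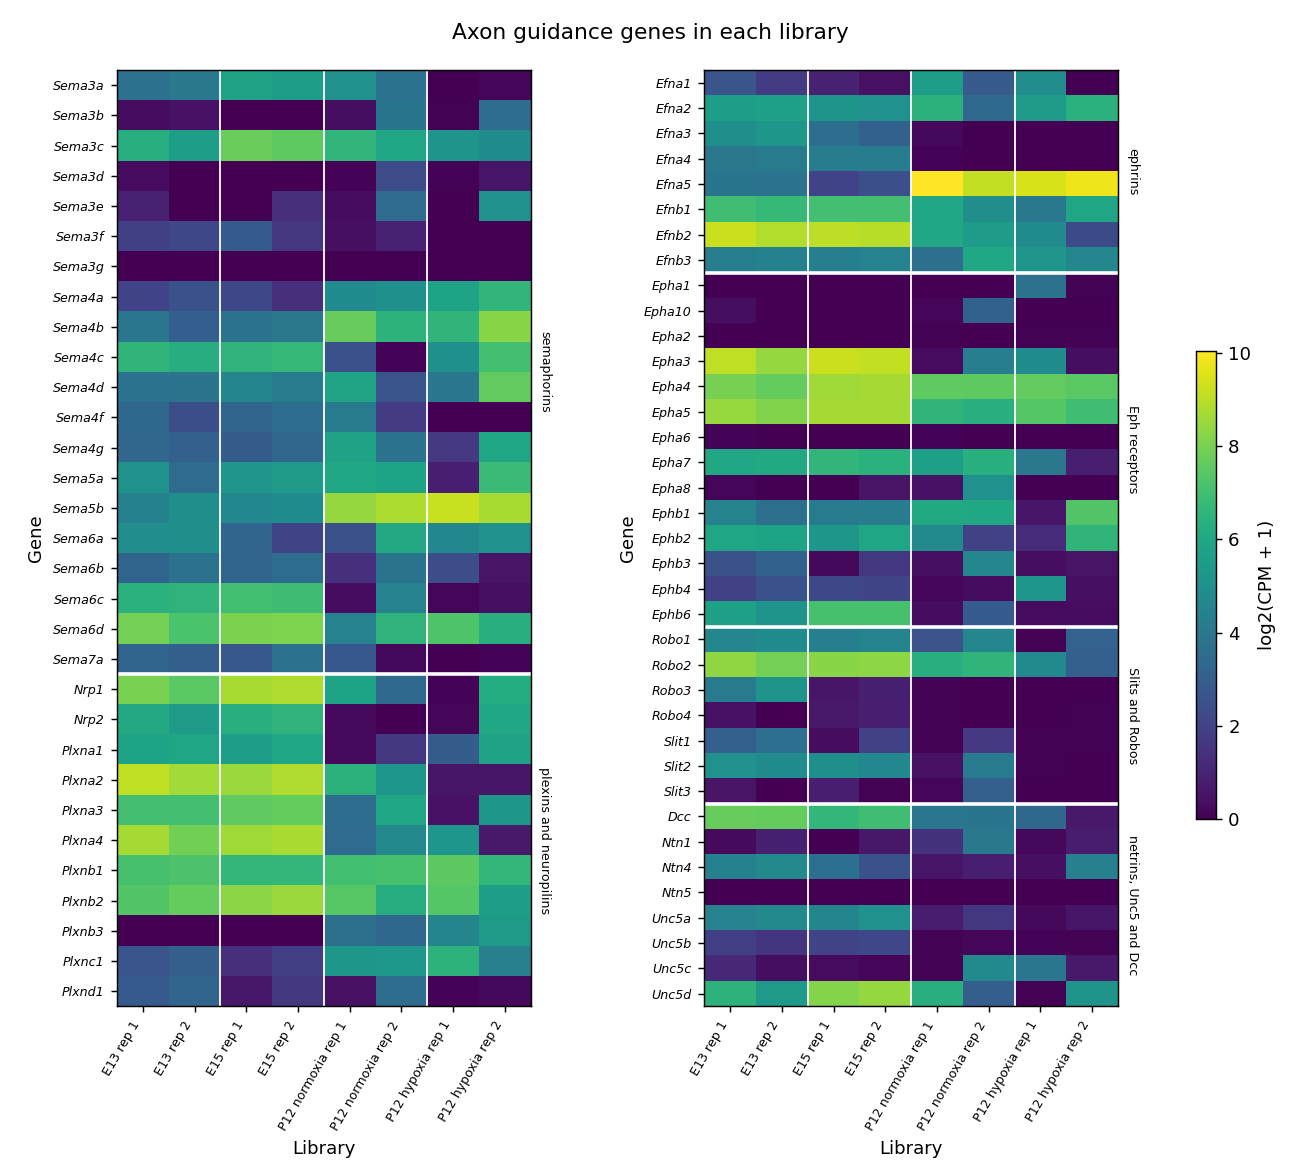
Level of each of the 68 members, as log2(CPM + 1), in each of the 8 libraries, grouped by family. Efnb2, Epha3 and Robo2 are high in the embryonic columns, Efna5 and Sema5b in the P12 columns, and paired P12 columns differ more than paired embryonic ones.

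The most abundant guidance gene per kb of exon changed between stages. At E13 and E15 it was Efnb2, at a mean of 77.8 and 74.9 CPM per kb. Epha3, a receptor for A-type ephrins, was next with 51.3 at E13 and 66.5 at E15. At P12 the order was led by Efna5, a lipid-anchored A-type ephrin, at 200 CPM per kb in normoxia and 193 in hypoxia. Sema5b, a transmembrane semaphorin with thrombospondin repeats, followed with 55.6 and 71.6. In these 2 P12 groups Efnb2 held 7.98 and 2.28 CPM per kb and Epha3 1.1 and 1.64.

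Summed per kb, the 4 families that hold the receptors stood lower at P12 than in the embryo in every library. Plexins and neuropilins summed to 129 to 201 CPM per kb in the embryonic libraries and 44.7 to 58.1 at P12. Eph receptors summed to 107 to 194 and 46.9 to 61 CPM per kb. The netrin, Unc5 and Dcc group summed to 33.3 to 56.5 and 1.64 to 10.5, and Slits and Robos to 20.8 to 26 and 0.929 to 9.18. The semaphorins went the other way, with 73.3 to 120 CPM per kb in the embryo and 126 to 221 at P12. Ephrins summed to 147 to 180 in the embryo and 182 to 359 at P12, so the sums of both stood higher in every P12 library, by little in the closest pair. At P12 most of the ephrin sum was Efna5, whereas Sema5b held 49 to 83 CPM per kb of the semaphorin sum. Without Efna5, ephrins summed to 146 to 177 in the embryo and 43.3 to 98.2 at P12. Without Sema5b, semaphorins summed to 68.9 to 117 and 59.4 to 160, with overlap.

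**Figure D2:**
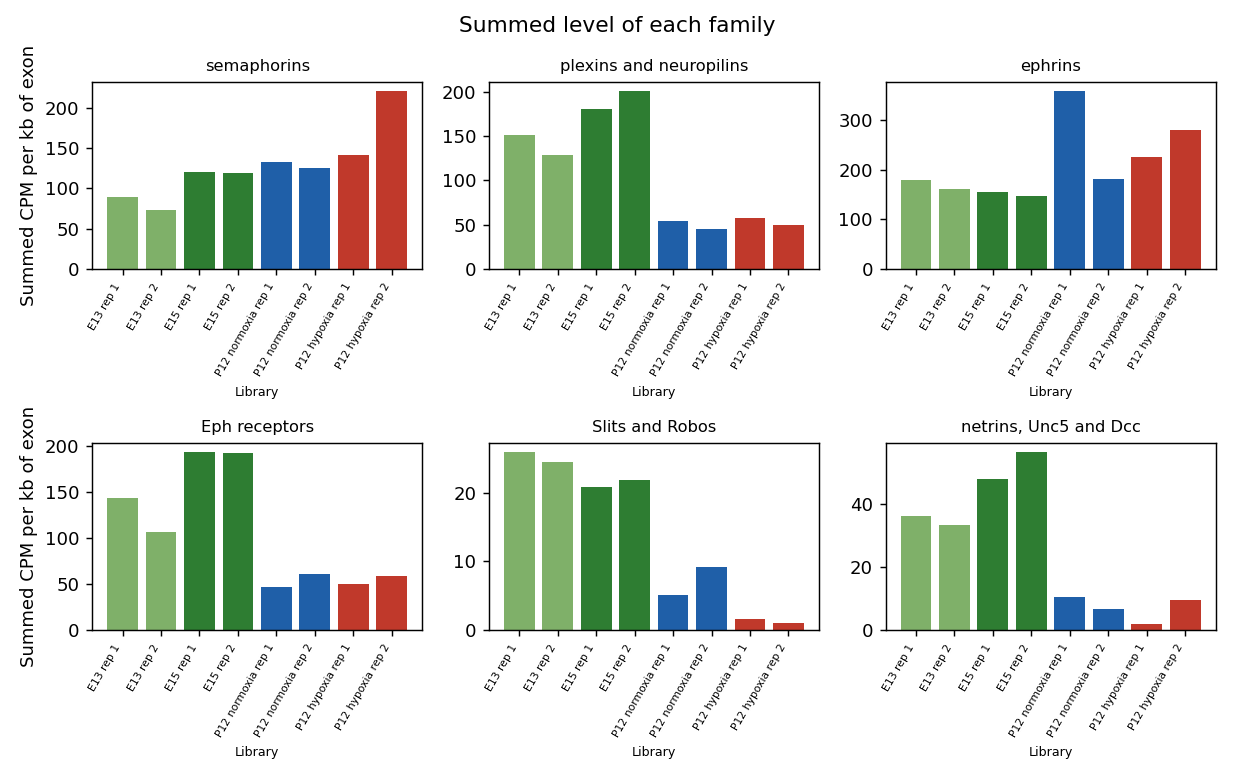
Summed CPM per kb of exon of each family (vertical axes start at 0 and differ between panels) in each library, 1 bar per library. Plexins and neuropilins, Eph receptors, Slits and Robos, and the netrin, Unc5 and Dcc group are lower in all 4 P12 libraries than in all 4 embryonic ones. Semaphorins and ephrins are higher in all 4 P12 libraries, the ephrins only with Efna5 and the semaphorins only with Sema5b.

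Normoxic P12 cells were compared with embryonic cells (the mean of E13 and E15) to ask how the guidance repertoire differs with age. Ephrin-A5, semaphorin 5B and a few other ligands were higher at P12 and 4 ligands lower, whereas most called receptors were lower. Of the 63 members tested, 9 were higher and 17 lower at an adjusted p under 0.05 (edgeR's quasi-likelihood test, Benjamini-Hochberg over all 19551 genes tested), 41.3% in all. Of all genes tested 34.4% were called, 19.3% higher and 15.1% lower. The median log2 fold change of the members was -0.74, against -0.09 over all genes, with 26 positive and 37 negative (48.5% and 51.5% of all genes). At an unadjusted p under 0.05 there were 12 higher and 24 lower members, against 24.6% and 21% of all genes. Without overlap between the groups, 11 lay higher and 27 lower, against 27.3% and 32.7%. Among 32 ligands tested 6 were higher and 4 lower, with a median of 0.29. That is about the rate of all genes (19.3% and 15.1%). Among 31 receptors 3 were higher and 13 lower, against the same shares of all genes, with a median of -1.81. The difference between ligands and receptors was not tested. In bulk RNA, fewer cells of a type and less RNA per cell cannot be told apart. The summed neuron markers were 2730 to 3160 CPM in the embryo against 906 and 1030 in normoxia. Of these 10 genes 1 was called higher and 6 lower (edgeR), and Gap43 had 54.2 to 63 CPM in the embryo and 464 and 312 in normoxia. Oligodendrocyte progenitor markers summed to 0.51 to 2.22 against 385 and 501, and the glutamatergic, astrocyte, progenitor and mural markers moved as given above. Their part in these differences was not tested.

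The main fit shared its estimate of spread between normoxic and embryonic libraries, which agreed unequally, and the calls varied with the libraries used. Of the 26 members called, Efna5, Sema5b, Efnb2 and Epha5 were called under all 14 alternatives. Leaving out replicate 1 or 2 of E13 left 3 and 2 members called higher and 5 and 5 lower, where 5.46% to 5.62% of all genes were higher and 1.93% to 2.01% lower. Leaving out replicate 1 or 2 of E15 left 2 and 3 higher and 5 and 6 lower, against 5.35% to 5.56% and 1.94% to 1.98% of all genes. Leaving out normoxic replicate 1 or 2 gave 12 and 11 higher, against 23.9% and 27.7% of all genes, and 32 and 29 lower, against 27% and 30.6%. With each of the 6 libraries left out in turn, Dcc, Plxna4 and Robo2 also kept their calls. Fitting all 8 libraries together called 6 higher and 8 lower, where 12.1% and 5.68% of all genes were called. limma-voom called 7 and 5, against 14.5% and 2.64%, and DESeq2 14 and 25, against 27% and 21.8%.

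Among the ligands, ephrins moved in both directions. Efna5, whose product repels axons that carry EphA receptors, had 1050 and 561 CPM in the 2 normoxic libraries, 686 and 871 in the hypoxic, 13.8 and 13.1 at E13 and 3.01 and 4.51 at E15. All 4 P12 libraries lie far above all 4 embryonic ones. The log2 fold change of normoxic P12 over the embryo was 6.85 (SE 0.40, adjusted p = 0.0015, edgeR). Efnb2, a transmembrane ephrin known from cortical progenitors and from arteries, had 64.7 and 44.7 CPM in normoxia, 27.6 and 3.77 in hypoxia, 600 and 466 at E13, and 531 and 496 at E15. All 4 embryonic libraries lie above all 4 P12 ones, and Efnb2 fell by 3.25 on the log2 scale (SE 0.31, adjusted p = 0.00395, edgeR). Epha5, a receptor for Efna5, was named after its values were seen: it had 94.5 and 76.9 CPM in normoxia, 166 and 123 in hypoxia and 279 to 415 in the embryonic libraries. It fell by 2.07 on the log2 scale from the embryo to normoxic P12 (SE 0.23, adjusted p = 0.0056, edgeR).

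These 3 genes are shown with their promoters because their calls held under every alternative and they include a ligand and its receptor that moved in opposite directions. The call of Sema5b held too, but the stretch before its start overlaps an annotated exon and is not printed. Each sequence is the 250 bases before the gene's start, from RefSeq on GRCm38.p6, read 5′ to 3′ on the gene's strand, which is minus for all 3. Efna5 lies at chr17:62604184-62881317 and its stretch at chr17:62881318-62881567, Efnb2 at chr8:8617434-8661242 and its stretch at chr8:8661243-8661492, and Epha5 at chr5:84054761-84417382 and its stretch at chr5:84417383-84417632. Capitals mark the hypoxia response core, ACGTG or GCGTG on either strand, here as CACGC on the reverse strand.
Efna5: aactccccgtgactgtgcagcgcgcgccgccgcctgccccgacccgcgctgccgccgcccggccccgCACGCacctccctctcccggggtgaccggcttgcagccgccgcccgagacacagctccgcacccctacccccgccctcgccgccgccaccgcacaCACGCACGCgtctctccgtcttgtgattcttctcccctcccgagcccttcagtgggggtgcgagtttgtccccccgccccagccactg
Efnb2: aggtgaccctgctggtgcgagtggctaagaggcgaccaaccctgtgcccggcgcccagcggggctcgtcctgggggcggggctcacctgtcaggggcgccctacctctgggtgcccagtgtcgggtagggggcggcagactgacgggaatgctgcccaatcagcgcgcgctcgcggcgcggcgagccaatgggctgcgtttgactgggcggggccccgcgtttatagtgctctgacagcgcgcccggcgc
Epha5: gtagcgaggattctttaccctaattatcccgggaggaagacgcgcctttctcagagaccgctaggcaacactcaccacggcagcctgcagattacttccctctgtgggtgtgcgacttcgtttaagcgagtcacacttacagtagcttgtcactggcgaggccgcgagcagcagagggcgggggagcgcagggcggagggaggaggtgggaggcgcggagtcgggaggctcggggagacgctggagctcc
Efna5 held 3 matches to the core, of which the last 2 overlap by 1 base, and Efnb2 and Epha5 held 0. On either strand, 38.6% of all 32851 promoters of this length held the core, and 43.2% of the 74 promoters found for 58 of the members. The SOX core ACAAT was in 27.7% of all promoters and 17.6% of the members' promoters, and the E-boxes CAGCTG or CAGATG in 25.5% and 21.6%. None of these motifs was in the Efnb2 or Epha5 stretch. A match is a description of the letters and not a binding site.

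The smaller A-type ephrins also parted. Efna3 had 31.3 and 38.4 CPM at E13, 11.5 and 7.72 at E15, 0.159 and 0 in normoxia and 0 in both hypoxic libraries. It fell by 7.75 on the log2 scale (SE 1.49, adjusted p = 0.0198, edgeR). Efna4 had 14.7 to 18.2 CPM in the embryonic libraries, 0.0635 and 0 in normoxia (2 counts in all) and 0 in both hypoxic libraries, a 529-fold difference between embryo and normoxia with a 95% counting interval of 146 to 4370. Efna1 rose, with 47.6 and 6.28 CPM in normoxia against 0.369 to 5.31 in the embryonic libraries (log2 fold change 4.17, SE 1, adjusted p = 0.0339, edgeR). The 2 hypoxic libraries had 29 and 0 CPM of it, so its level at P12 differed from library to library.

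All called semaphorins were higher at P12, 4 of 19 tested (21.1%), near the 19.3% of all genes called higher. Without overlap between the groups 5 semaphorins lay higher and 4 lower, against 27.3% and 32.7% of all genes. Sema5b had 347 and 440 CPM in normoxia and 587 and 427 in hypoxia, against 20.1 to 31.2 in the embryonic libraries. Its P12 libraries all exceed its embryonic ones, with a log2 fold change of 3.90 in normoxia (SE 0.24, adjusted p = 0.00156, edgeR). Sema4b, a transmembrane semaphorin, had 207 and 87.9 CPM in normoxia, 94.4 and 307 in hypoxia and 6.93 to 14.6 in the embryo (log2 fold change 3.63, SE 0.51, adjusted p = 0.00972, edgeR). Sema4a, of the same class, had 27.9 and 31.6 CPM in normoxia, 54.9 and 96.3 in hypoxia and 1.54 to 4.74 in the embryo (log2 fold change 3.22, SE 0.50, adjusted p = 0.0119, edgeR). For these 3 genes the P12 libraries lie apart from the embryonic ones. The fourth, Sema3b, a secreted semaphorin, had 0.286 and 14.1 CPM in normoxia and 0 to 0.392 in the embryo, so its groups overlap. Its call was lost in limma-voom, with upper-quartile scaling, without a filter, in the fit of all 8 libraries and with the replicate block. Sema6d, a ligand of Plxna1 and the highest semaphorin per kb at E13, had 144 to 273 CPM in the embryonic libraries and 20.6 and 90.7 in normoxia, and did not pass.

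Plexins and neuropilins, the semaphorin receptors, included 2 members higher and 5 lower of 11 tested, 63.6% called against 34.4% of all genes. Plxnc1, the receptor of Sema7a, had 38.4 and 39.7 CPM in normoxia, 89.7 and 19.6 in hypoxia and 1.57 to 7.12 in the embryo (log2 fold change 3.43, SE 0.39, adjusted p = 0.00576, edgeR). Plxnb3, a receptor of Sema5a, had 12.1 and 9.61 CPM in normoxia, 22.7 and 43.8 in hypoxia and 0 counts in all 4 embryonic libraries. It was thus at least 209-fold higher in normoxia than the limit of 3 counts per embryonic library. Both genes were higher in every P12 library than in any embryonic one.

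The A-type plexins, which pair with neuropilins, were lower. Plxna4 had 240 to 428 CPM in the embryonic libraries and 10.3 and 25.5 in normoxia (log2 fold change -4.39, SE 0.50, adjusted p = 0.00571, edgeR). Plxna2 had 373 to 544 CPM in the embryo and 86.4 and 37.7 in normoxia (log2 fold change -2.80, SE 0.50, adjusted p = 0.0166, edgeR). Plxna1 had 47.1 to 59.8 CPM in the embryo and 0.19 and 2.08 in normoxia. For all 3 the embryonic libraries stand clear above the normoxic ones. The fourth A-type plexin, Plxna3, had 129 to 200 CPM in the embryo and 11.1 and 59.9 in normoxia, and did not pass.

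Both neuropilins were called lower too. Nrp2, co-receptor of Sema3f, had 46.3 to 91 CPM in the embryonic libraries and 0.19 and 0 in normoxia (log2 fold change -9.42, SE 1.32, adjusted p = 0.00939, edgeR). Yet 1 hypoxic library had 64.3 CPM of it and the other 0.134. Nrp1, co-receptor of Sema3a and of VEGF, had 175 to 455 CPM in the embryo and 56.1 and 9.83 in normoxia (log2 fold change -3.17, SE 0.88, adjusted p = 0.0491, edgeR). The call of Nrp1 was lost in limma-voom, with relative log expression scaling, without a filter, in the fit of all 8 libraries and with the replicate block. Its hypoxic libraries had 0.0672 and 74.2 CPM, on either side of the normoxic ones.

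The Eph receptors included 1 higher and 3 lower of 11 tested, 36.4% called against 34.4% of all genes. Ephb1, a receptor of B-type ephrins, had 68.2 and 61.9 CPM in normoxia and 12.1 to 21.2 in the embryo (log2 fold change 1.95, SE 0.32, adjusted p = 0.014, edgeR). Its hypoxic libraries had 0.504 and 156 CPM. Epha4, which binds ephrins of both classes, had 174 to 194 CPM in the 4 P12 libraries and 202 to 413 in the embryonic ones. It fell by 0.67 on the log2 scale (SE 0.17, adjusted p = 0.0405, edgeR), a call lost under the same 5 alternatives as that of Nrp1. Ephb4, known from veins, had 2.81 to 4.79 CPM in the embryo and 0.127 and 0.26 in normoxia (log2 fold change -4.23, SE 0.75, adjusted p = 0.0165, edgeR), while 1 hypoxic library had 37.5. Epha3 had 351 to 602 CPM in the embryo and 0.222 and 18.8 in normoxia, and did not pass.

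Slit, Robo and netrin genes gave no call upward, where 19.3% of all genes were called higher. Robo2, a Slit receptor and the highest of its family per kb in every group, had 247 to 330 CPM in the embryo, 80.4 and 92.6 in normoxia and 27.1 and 7.5 in hypoxia. It fell by 1.81 on the log2 scale (SE 0.18, adjusted p = 0.00457, edgeR), with no overlap. Robo3, which in the spinal cord lets commissural axons reach the midline, had 16.7 and 36 CPM at E13, 0.51 and 0.851 at E15, and 1 count in the 2 normoxic libraries together. Over normoxia E13 was 1640-fold higher, with a 95% counting interval of 295 to 64900, and E15 42.9-fold, with one of 7.48 to 1710. Robo1, the other main Slit receptor of the cortex, had 19.2 to 27.5 CPM in the embryo and 4.89 and 23.9 in normoxia, and did not pass.

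Dcc, the netrin-1 receptor, had 206 and 201 CPM at E13, 98.7 and 124 at E15, 14.5 and 14 in normoxia, and 9.38 and 0.628 in hypoxia. Each stage lies below the one before without overlap, and Dcc fell by 3.41 on the log2 scale from the embryo to normoxic P12 (SE 0.23, adjusted p = 0.00177, edgeR). Unc5a, a repulsive netrin receptor, had 20.9 to 32.7 CPM in the embryo and 0.73 and 2.12 in normoxia (log2 fold change -4.22, SE 0.63, adjusted p = 0.0108, edgeR). Ntn4, a laminin-like netrin of basement membranes, had 4.77 to 25.7 CPM in the embryo and 0.476 and 0.814 in normoxia. Unc5d, the highest of this family per kb at E15, had 42.3 to 344 CPM in the embryo and 81.6 and 7.23 in normoxia, and did not pass.

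**Figure D3:**
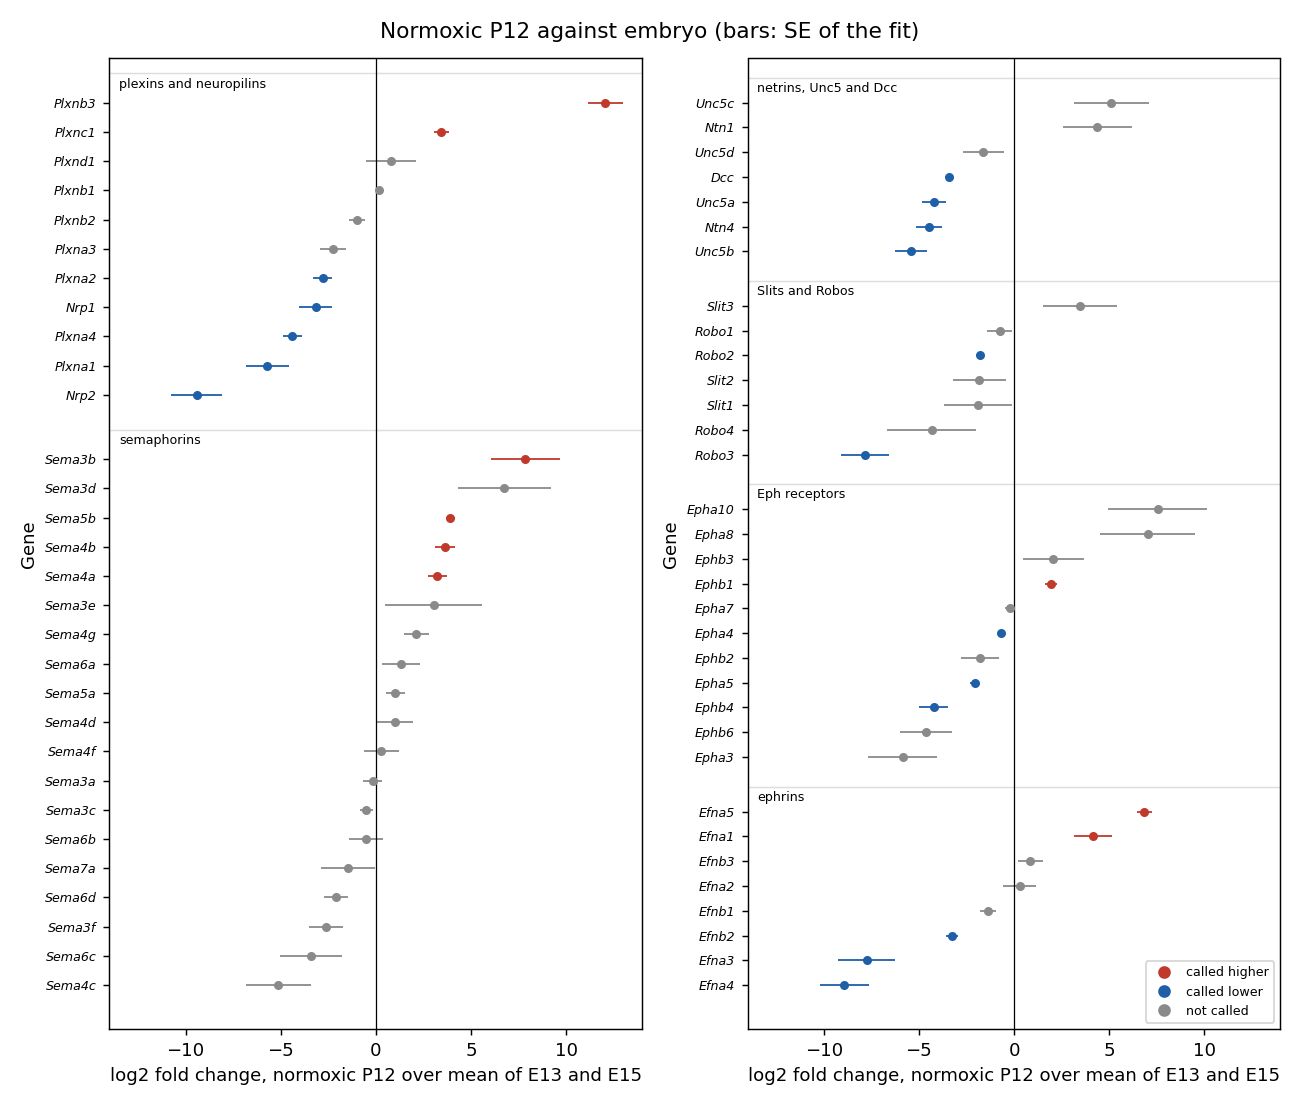
Log2 fold change of normoxic P12 over the embryonic mean for the 63 members tested, by family (points, bars 1 SE, colour by call). Efna5 and Sema5b are among the members above 0, and Efnb2, Epha5 and Dcc among those below; Plxnb3, with 0 embryonic counts, is drawn at its fitted value of 12.06, which depends on the prior count.

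E15 was compared with E13 to ask how the repertoire moves while neurons are being produced. Sema3a rose, Robo3 fell, and no other member passed. These 2 are 3.39% of the 59 members tested, against 1.25% of all 18253 genes (0.493% higher and 0.762% lower). At an unadjusted p under 0.05 there were 13 higher and 12 lower members, against 9.48% and 10.7% of all genes. The median log2 fold change of the members was 0.12, against 0.00 over all genes, with 33 positive and 26 negative (49.6% and 50.4% of all genes). Both calls were lost in the fit of all 8 libraries, where 0% of all genes were called in either direction. Both were also lost when any of the 4 libraries (replicate 1 or 2 of either age) was left out. Such a fit has 1 library in a group, so it cannot decide whether these calls hold. Over all alternatives the log2 fold change was 1.72 to 2.03 for Sema3a and -5.73 to -4.6 for Robo3. DESeq2 called 12 members higher and 12 lower, where it called 5.79% and 6.8% of all genes. limma-voom called 6 and 3, against 1.06% and 1.41% of all genes, and did not call Robo3. Radial glia and progenitor markers summed to 556 to 591 CPM at E13 and 343 to 411 at E15. Of these 10 genes Vim was lower (log2 fold change -1.55) and Fabp7 higher (1.53), and of the neuronal lists Stmn2 (-2.23), Slc17a7 (-1.33) and Tbr1 (-1.25) were lower. Their part was not tested.

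Sema3a, the secreted repellent that signals through Nrp1 and A-type plexins, had 12.6 and 15.3 CPM at E13 and 54 and 48 at E15. The groups are far apart, with a log2 fold change of 1.87 (SE 0.17, adjusted p = 0.0423, edgeR). Robo3 went the other way, from 16.7 and 36 CPM to 0.51 and 0.851, a fall of 5.27 on the log2 scale (SE 0.57, adjusted p = 0.0481, edgeR). Its E13 replicates differed from each other by more than those of Sema3a, but both lie far above E15.

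Other members with small p did not pass. Plxna3 had 129 CPM in both E13 libraries and 192 and 200 at E15 (log2 fold change 0.60, SE 0.07, adjusted p = 0.0543, edgeR). Ephb6, an Eph receptor without kinase activity, had 53.1 and 35.6 CPM at E13 and 137 and 138 at E15 (adjusted p = 0.0564, edgeR). Sema3c, a secreted semaphorin and the highest of its family per kb at E15, had 77.9 and 48.8 and then 214 and 184 CPM (adjusted p = 0.0694, edgeR). In the other direction Efna3 and Efna5 had lower values at E15 (adjusted p = 0.0671 and 0.0674, edgeR), as had Dcc (adjusted p = 0.0683, edgeR). In each of these 6 genes the E13 and E15 libraries do not overlap. Across the members tested, 20 lay higher and 16 lower at E15 without overlap, against 25.1% and 27.2% of all genes.

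**Figure D4:**
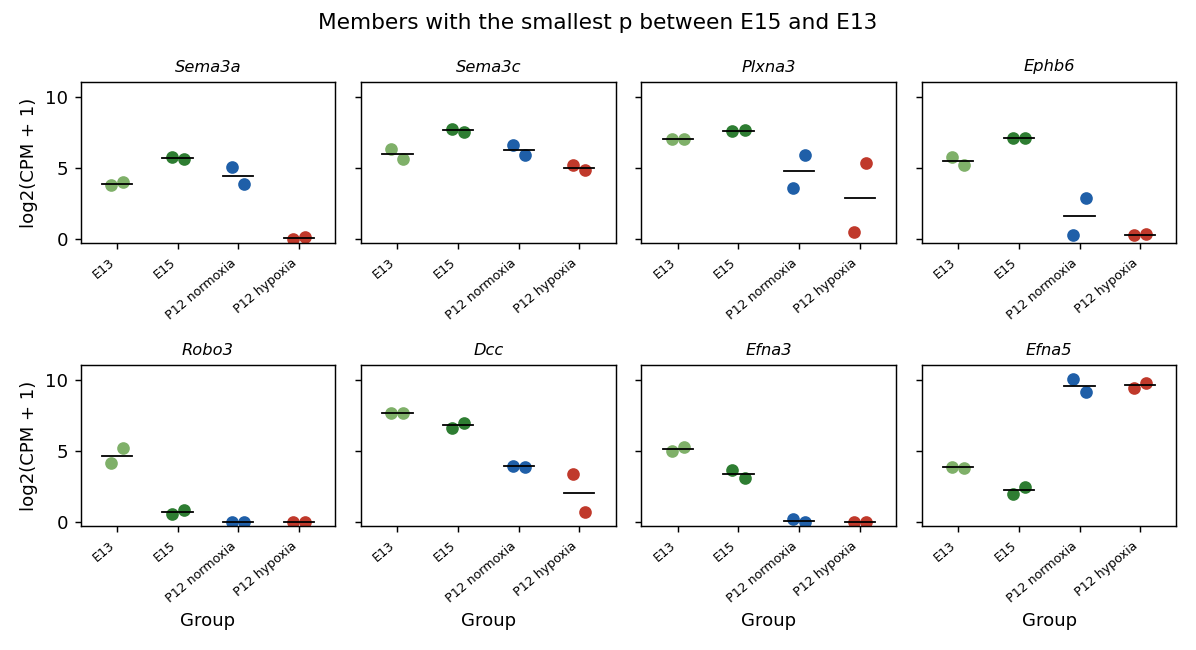
Levels as log2(CPM + 1) in each library (points, lines at the group mean of 2 libraries) of the 4 members with the smallest p in each direction between E15 and E13. Sema3a, Sema3c, Plxna3 and Ephb6 are higher at E15, and Robo3, Dcc, Efna3 and Efna5 lower.

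Hypoxic P12 cells were compared with normoxic ones to ask how the repertoire responds to neonatal injury. No member passed, as no gene did: 0 of 47 members and 0% of 14836 genes in edgeR's test, and 0 in limma-voom. At an unadjusted p under 0.05 there were 0 higher and 4 lower members, against 1.34% and 9.16% of all genes. DESeq2 called 5 members, Plxna1 higher and Epha8, Plxna2, Sema3a and Sema4f lower, where it called 0.782% of all genes higher and 8.41% lower. The edgeR fit of all 8 libraries called 1, Plxna2 lower, where it called 0.196% of all genes higher and 2.82% lower. With 2 libraries against 2, an exact two-sided permutation test of any single value cannot go below p = 0.333. The median log2 fold change of the members was -0.19, against 0.07 over all genes, with 20 positive and 27 negative (52.8% and 47.2% of all genes). Of the members 5 lay higher and 11 lower without overlap, against 15.6% and 21.6%.

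Plxna2, a receptor for class 3 and class 6 semaphorins at chr1:194618218-194816869, had 86.4 and 37.7 CPM in normoxia and 0.538 and 0.517 in hypoxia. The groups stand far apart, with a log2 fold change of -6.83 (SE 1.44, adjusted p = 0.341, edgeR). Sema3a had 33.1 and 13.3 CPM in normoxia and 0 and 0.111 in hypoxia, where it had 3 counts in all. The ratio of normoxia to hypoxia was 442, with a 95% counting interval of 151 to 2150 (adjusted p = 0.366, edgeR). Sema4f, a transmembrane semaphorin, had 16.8 and 2.41 CPM in normoxia and 0 in both hypoxic libraries, at least 90.5-fold lower at 3 counts per hypoxic library (adjusted p = 0.345, edgeR). Epha8, an ephrin-A receptor, had 0 in both hypoxic libraries too, but rested on 1 normoxic library with 33 CPM where the other had 0.412 (at least 158-fold lower, adjusted p = 0.441, edgeR).

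Members with the smallest p upward were more scattered. Sema4c, a ligand of Plxnb2, had hypoxic levels of 31.5 and 129 CPM against 4.79 and 0.0651 (log2 fold change 5.12, SE 2.32, adjusted p = 0.64, edgeR). Plxna1 had hypoxic levels of 6.72 and 54.4 CPM against 0.19 and 2.08 (log2 fold change 4.81, SE 2.21, adjusted p = 0.659, edgeR). Sema4a had 54.9 and 96.3 CPM against 27.9 and 31.6 (adjusted p = 0.895, edgeR). In these 3 the hypoxic libraries lie above the normoxic ones. Ntn4 had 0.336 and 19.6 CPM in hypoxia against 0.476 and 0.814, so its groups overlap.

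Of the 4 genes called under every alternative between P12 and the embryo, none passed with oxygen (edgeR). Efna5 had a log2 fold change of -0.01 (SE 0.46) between hypoxia and normoxia, which changed sign with the scaling, and Sema5b of 0.38 (SE 0.38), and the groups of both overlap. Efnb2 had -1.82 (SE 1.36) and Epha5 0.78 (SE 0.54), without overlap between the groups. Marker genes differed in the same 4 libraries. Neuron markers (10 genes) summed to 359 and 687 CPM in hypoxia, with 4 of 10 at 1 CPM or more in each, and to 1030 and 906 in normoxia, with 10 of 10. Of these 10 genes 3 had a positive log2 fold change and 7 a negative one. Oligodendrocyte progenitor markers (8 genes) summed to 989 to 1700 CPM in hypoxia and 385 to 501 in normoxia. Maturing oligodendrocyte markers (8 genes) summed to 1230 to 2140 and 213 to 651 CPM, and interneuron markers (8 genes) to 102 to 121 and 251 to 266. Their part in the members' values was not tested.

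**Figure D5:**
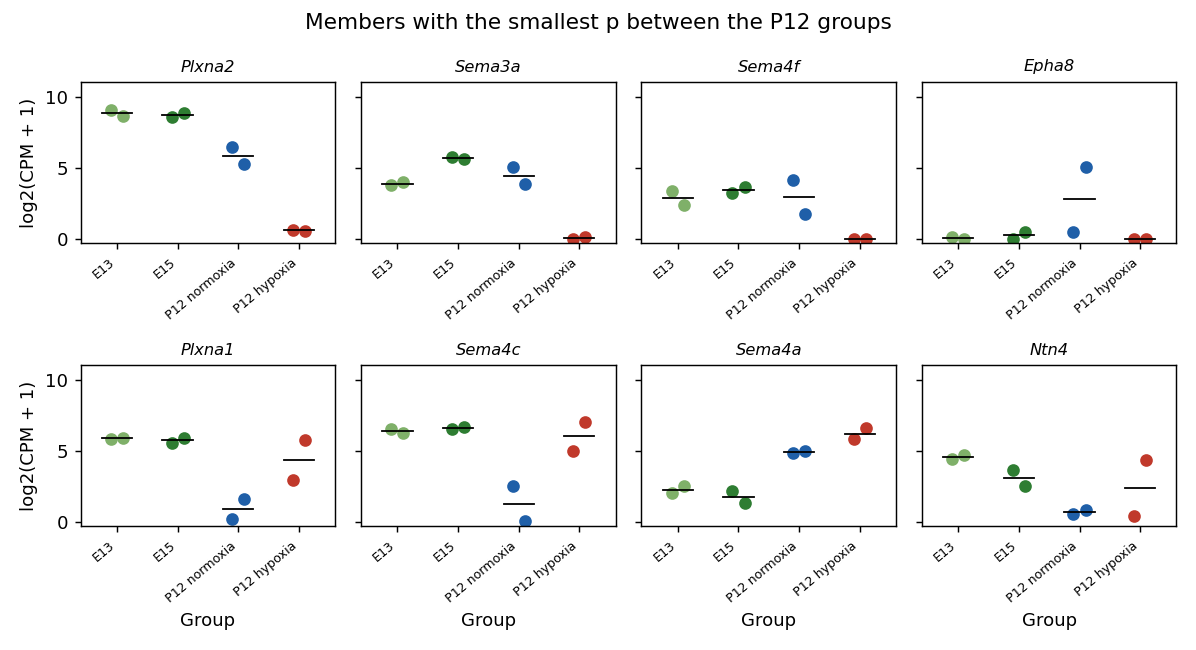
Levels as log2(CPM + 1) in each library (points, lines at the group mean of 2 libraries) of the 4 members with the smallest p in each direction between P12 hypoxia and P12 normoxia. Plxna2, Sema3a, Sema4f and Epha8 are lower in both hypoxic libraries, and the 2 libraries of a P12 group often lie far apart.

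Other parts of the guidance machinery, from lists chosen with earlier results known, gave mixed directions. Of 30 other guidance ligands, receptors and co-receptors, 29 were tested at normoxic P12 against the embryo, and 7 were higher and 6 lower, where 19.3% and 15.1% of all genes were. Rgma, a repulsive guidance molecule, rose by 4.78 on the log2 scale (SE 0.86), and its relative Rgmb fell by 2.41 (SE 0.32). Lingo1, a co-receptor of the Nogo receptor, rose by 3.95 (SE 0.44), whereas the Nogo receptor Rtn4r fell by 6.48 (SE 0.97) and the axonal adhesion molecule L1cam by 2.94 (SE 0.45). Of 59 intracellular effectors, 58 were tested, and 13 were higher and 11 lower, against the same shares of all genes. Among them Gsk3b, a kinase acting on microtubule proteins, rose by 4.50 (SE 0.16), and Nck2, an adaptor to the actin cytoskeleton, fell by 6.59 (SE 0.28). Between E15 and E13 the first list gave 1 call, the adhesion molecule Chl1, which rose by 3.88 (SE 0.33), and the second gave 2, Pak3 and Grb10, both lower, of 26 and 55 tested, where 1.25% of all genes were called. Between hypoxia and normoxia both lists gave 0 calls, of 24 and 54 tested.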

How the data were processed

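The starting point was raw counts per gene from RNA sequencing, which the authors deposited for each of 8 libraries, 2 per group. Reads were handled with STAR, Subread and cutadapt on GRCm38, per the submitters' processing notes. Versions, annotation release and strand setting are not given in the sources used here. Of 55487 rows per file, 1980 named no gene (0.205% to 0.266% of counts) and were left out. Symbols of all 68 members matched GENCODE M21 on GRCm38, which gave exon lengths and coordinates. Promoters came from RefSeq.

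Counts were tested with edgeR 4.0.16 in R 4.3.3 (TMM, filterByExpr with minimum count 10 and minimum total 15, quasi-likelihood, two-sided, Benjamini-Hochberg over all tested genes, threshold 0.05). Only the libraries of the compared groups entered a fit, because replicate spread differs between stages. The fit of normoxic P12 against the embryo still pooled both stages, so its SEs and p-values do not measure the spread at P12 alone. SEs were derived from the F statistic. Alternatives were DESeq2 1.42.0, limma-voom (limma 3.58.1) with library quality weights, scaling by upper quartile or by relative log expression, no filter or at least 5 CPM in 2 libraries, all 8 libraries in one fit, a replicate block, and leaving out each library. Python 3.11.15 was used for the remaining steps.

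The members, the lists and the choice of libraries per fit were made with earlier results of these data known. Named members are, per comparison, up to 10 called members per direction with at least 10 CPM in 1 library, largest fold change first, or the 4 of smallest p per direction where fewer than 4 were called. Added are the highest member per kb of each family in each group, and Dcc, Robo1, Nrp1, Nrp2, Plxnd1, Robo4, Ephb4 and Efnb2. Replicate numbers come from the titles, differ from those on most P12 files and pair no libraries.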

Additional observations from a re-analysis of the deposited data

How the results depend on the processing

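With 2 libraries per group, p-values rest on little replication. A group reduced to 1 library was taken to vary as the other groups do. The causes of the changes below were not tested.

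For hypoxia against normoxia the 0 members called either way became 1 higher and 4 lower in DESeq2 and 1 lower in the fit of all 8 libraries, and stayed 0 when any library was left out. For E15 against E13 the 1 member higher and 1 lower became 12 and 12 in DESeq2 and 6 and 3 in limma-voom. With at least 5 CPM in 2 libraries they became 8 and 6, where 461 and 640 of 11760 genes were called. They became 0 and 0 in the fit of all 8 libraries, where 0% of all genes were called. With the replicate block they were 0 and 0 too, where 0 and 3 of 18253 genes were called. Both calls were also lost with any library left out. For normoxic P12 against the embryo the 9 higher and 17 lower became 14 higher in DESeq2, 5 lower in limma-voom and 8 lower in the fit of all 8 libraries, and ranged from 2 to 12 higher and 5 to 32 lower with 1 library left out. DESeq2 called 25 lower. The replicate block gave 7 higher and 13 lower there, where 2265 and 1223 of 19551 genes were called. Between the P12 groups it gave 0, where 0 of 14836 genes were called. Same-numbered libraries did not deviate together (r = -0.044 to 0.014), and the numbers on most P12 files differ from the titles used here, so the numbers name no pairs. Upper-quartile scaling moved the median log2 fold change of all genes from 0.07 to -0.14 between the P12 groups and from -0.09 to -0.28 at normoxic P12 against the embryo, and relative log expression scaling moved them to 0.17 and 0.01. The members' median between the P12 groups ranged from -1.65 to 0.30 with 1 library left out.

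Some log2 fold changes of members that were not called changed sign, listed here for the named members only. Between the P12 groups, Efna5 was at 0.08 in DESeq2 and with relative log expression scaling, 0.03 in limma-voom, 0.02 without a filter and 0.04 with the replicate block. Epha4 was at 0.07, 0.07 and 0.02 in DESeq2, with relative log expression scaling and without a filter. Ephb1, Nrp1 and Plxna4 were at -2.96, -3.20 and -1.68 in limma-voom and -2.78, -3.11 and -1.69 with the replicate block, and upper-quartile scaling put Nrp1, Plxna4 and Plxnb1 at -0.03, -0.08 and -0.10. With 1 library left out the ranges were Efna1 -12.62 to 1.22, Efna5 -0.36 to 0.57, Epha3 -4.84 to 6.04, Epha4 0.00 to 0.05, Ephb1 -7.02 to 1.40, Nrp1 -8.89 to 2.07, Ntn4 -0.94 to 5.06, Plxna3 -6.44 to 0.92, Plxna4 -4.68 to 1.06, Plxnb1 -0.28 to 0.43, Plxnb2 -1.22 to 0.56, Plxnc1 -0.86 to 1.18, Sema3b -7.57 to 4.34, Sema4b -0.68 to 1.31, Unc5d -10.25 to 1.45. Between E15 and E13, upper-quartile scaling put Ephb1 at 0 and Sema5b at -0.01, the filter of 5 CPM put Sema5b at 0, and leaving out 1 library gave Efnb2 -0.21 to 0.13, Ephb1 -0.31 to 0.47, Ephb4 -0.51 to 0.28, Plxna1 -0.29 to 0.05, Plxna2 -0.38 to 0.06, Robo2 -0.06 to 0.33, Sema4b -0.04 to 0.99, Sema5b -0.27 to 0.39. At normoxic P12 against the embryo, Plxnb1 was at -0.05 with upper-quartile scaling. Plxnd1 was at -0.26 in limma-voom and -0.13 with the replicate block, and Sema4f at -0.48 and -0.16, or -0.01 with upper-quartile scaling. With 1 library left out the ranges were Plxnd1 -3.09 to 1.73, Sema3a -1.14 to 0.39, Sema4f -1.90 to 1.11. Members outside the named set changed sign there too, among them Efna2 (-2.21 to 1.15 over the alternatives) and Sema4d (-1.81 to 1.89).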
